A study of Mus musculus with 28 samples.

Results

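The comparison set the livers of male C57BL/6 mice on a methionine- and choline-deficient diet (MCD) against the livers of male C57BL/6 mice on its matched low-fat control diet (CD). It took 8 of the 28 samples of the series, 4 per diet. Feeding lasted 4 weeks by the study text and the sample titles but 5 weeks by the duration label, and neither the age of the mice nor whether each library is 1 animal is stated in the labels. The unit described is the gene: 15312 of the 20416 genes of the table, those above the 25th percentile of mean level, were tested. The account covers genes and functions outside the lists most often examined in this model, in 50 lists that together held 2035 genes, of which 1977 were tested.

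Methionine is the source of S-adenosylmethionine, the donor for nearly all methyl groups placed on DNA, RNA, proteins, creatine and phospholipids, and, once decarboxylated, for the polyamines. Choline is the head group of phosphatidylcholine, the main lipid of membranes and of the coat of secreted lipoproteins, and of sphingomyelin. Liver is the main site of breakdown of most amino acids, of NAD synthesis from tryptophan, of creatine synthesis and of the conjugation of drugs. A diet lacking both nutrients is a standard way to produce a fatty, inflamed and scarred liver in mice.

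Libraries held 18.0 to 22.8 M assigned reads on the control diet and 20.3 to 25.9 M (M, 1e6 reads) on MCD. The table gives log2 CPM (counts scaled by library size) on a scale set by its authors, whose library scaling factors relative to total reads, as recovered from the table, were 0.832 to 0.899 for the control and 1.106 to 1.228 for the MCD libraries. A level is given in log2 CPM and a difference as a log2 fold change, MCD minus CD, with its standard error (SE), and n = 4 per diet throughout; "rose by" and "fell by" give log2 fold changes. For the called genes given here with reads in both diets, SE ran from 0.09 to 0.96 with a median of 0.19, and the largest limma adjusted p was 0.0146. Of the genes tested, 6541 differed (42.7%) at an adjusted p of 0.05 by limma, 3462 higher (22.6%) and 3079 lower (20.1%), so a count within a list reads against those shares. Scaling by total reads moved the median fold change of all genes from 0.07 to 0.49 and gave 7588 higher (49.6%) and 1222 lower (7.98%), or 86.1% of calls higher in place of 52.9%, and quantile normalization moved it to 0.00 and gave 3101 (20.3%) and 3132 (20.5%). Under all 3 scales 16.4% of genes were higher and 7.66% lower, and in 40.1% the 4 values of one diet did not overlap those of the other on the authors' scale. List counts are therefore given on the authors' scale, then with total-read scaling, then with quantile normalization. A gene said to have risen or fallen kept that call on all 3 scales and in every other alternative in which it was tested, unless the exception is stated. On the first principal component (56.2% of the variance) the diets separated, and on the second (10.2%) control replicate 4 stood apart from the other 7 libraries. Bulk RNA cannot tell fewer cells of a type from less RNA per cell, and p-values measure the spread between these libraries, which may in part be technical.

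**Figure D1:**
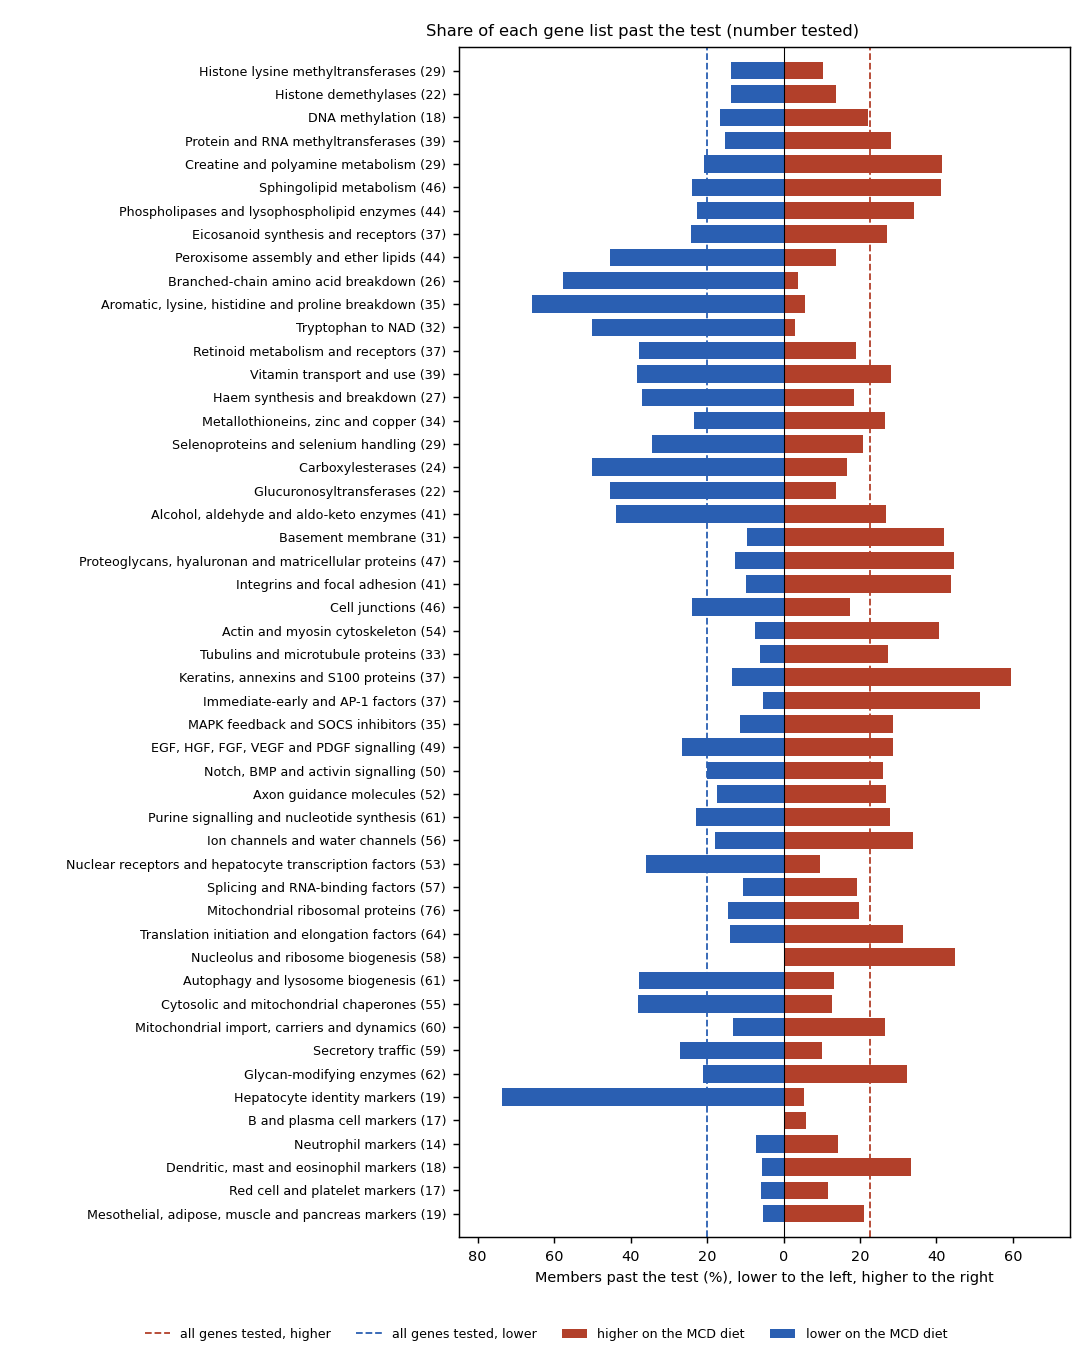
Share of the tested members of each of the 50 gene lists that passed the test (limma adjusted p under 0.05, authors' scale): red bars to the right are higher on the MCD diet, blue bars to the left lower, and the dashed lines mark the shares over all 15312 genes, 22.6% and 20.1%. Amino acid breakdown, NAD synthesis, carboxylesterases and hepatocyte markers reach far to the left, and keratins, annexins and S100 proteins, immediate-early factors and the nucleolus to the right.

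Hepatocyte identity genes summed to 142546 to 167162 CPM in the control livers and 103468 to 135244 CPM in the MCD livers. This sum and those of the other marker lists below are on the authors' scale alone. Relative to total reads, that scale raises the CPM of control libraries and lowers the CPM of MCD libraries. Whether the diets stay apart in these sums on another scale was not tested. Of 19 hepatocyte identity genes, 1 passed as higher and 14 as lower (3 and 13 with total-read scaling, 4 and 8 with quantile normalization). Serpina1c and Serpina1a, alpha-1-antitrypsin genes so alike that reads may be split between them, fell by 2.06 and 1.57, and Itih1, an inter-alpha-trypsin inhibitor chain, fell by 1.53. Ahsg, the secreted fetuin-A, rose (log2 fold change 0.58 ± 0.12).

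Enzymes that use methyl groups did not move as 1 block. Of 29 histone lysine methyltransferases, 3 passed as higher and 4 as lower (12 and 1 with total-read scaling, 6 and 5 with quantile normalization), smaller shares than over all genes on the authors' scale. Setd7, Setd8 and Smyd5 rose by 0.60, 0.61 and 0.84, and Prdm2 fell by 0.73. Among 22 histone demethylases, 3 passed as higher and 3 as lower (11 and 0 with total-read scaling, 3 and 4 with quantile normalization), with Kdm2b at 0.56 ± 0.13 and Mina at 0.59 ± 0.11, and leaving out control replicate 2 or MCD replicate 1 gave 5 lower. Of 18 genes of DNA methylation, 4 passed as higher and 3 as lower (9 and 0 with total-read scaling, 4 and 2 with quantile normalization), and the 3 lower calls were lost without control replicate 1, control replicate 4, MCD replicate 3 or MCD replicate 4, with 1 left without MCD replicate 2. The 3 rises that held on every alternative were Uhrf1 (1.86 ± 0.43), which guides the maintenance methyltransferase to replicated DNA, and the stress-inducible Gadd45a (1.14 ± 0.22) and Gadd45b (4.25 ± 0.27), which have been linked to active demethylation. Gadd45b had 7, 9, 6 and 5 reads in the control livers and 135, 150, 165 and 360 reads in the MCD livers.

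Methyltransferases of RNA and small molecules changed in both directions. Of 39 protein and RNA methyltransferases, 11 passed as higher and 6 as lower (29 and 2 with total-read scaling, 14 and 4 with quantile normalization). Trmt61a, the catalytic subunit that places 1-methyladenosine on transfer RNA, read 2.21, 2.02, 1.15 and 1.91 in the control livers and 3.61, 4.05, 3.61 and 4.05 in the MCD livers (log2 fold change 2.01 ± 0.22 SE, limma adjusted p = 1.78e-05). Its partner Trmt6 rose by 0.80, and Trdmt1, the transfer RNA cytosine methyltransferase once called Dnmt2, read 2.06, 2.16, 1.89 and 2.23 in the control livers and 4.25, 3.95, 3.98 and 3.61 in the MCD livers (log2 fold change 1.86 ± 0.16 SE, limma adjusted p = 2e-06). In all 3 the diets did not overlap. Inmt, a gene outside this list and its counts, methylates indole amines and selenium and sulfur compounds. Inmt went the other way, with 9.05, 9.01, 8.42 and 8.15 in the control livers and 5.84, 4.98, 6.37 and 5.33 in the MCD livers (log2 fold change −3.03 ± 0.32 SE, limma adjusted p = 0.00012). Mettl7a1, a methyltransferase-like protein of lipid droplets and the endoplasmic reticulum, fell 2.79-fold (−1.48 ± 0.11), and Rbm15, a subunit of the messenger RNA N6-adenosine methylation complex, fell by 1.48.

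Creatine synthesis is a large consumer of methyl groups, and polyamine synthesis of decarboxylated S-adenosylmethionine. Of 29 genes of both, 12 passed as higher and 6 as lower (17 and 3 with total-read scaling, 10 and 5 with quantile normalization). Gamt, which methylates guanidinoacetate in the last step of creatine synthesis, read 6.37, 6.39, 5.97 and 6.03 in the control livers and 5.17, 4.65, 5.29 and 4.79 in the MCD livers (log2 fold change −1.21 ± 0.15 SE, limma adjusted p = 5.64e-05). Slc6a8, which takes creatine up from blood, changed in the opposite direction, at 1.68, 2.10, 1.55 and 1.77 in the control livers and 3.76, 3.79, 3.91 and 4.27 in the MCD livers (log2 fold change 2.15 ± 0.17 SE, limma adjusted p = 1.11e-06). Gamt was lower and Slc6a8 higher in every MCD liver. Odc1, ornithine decarboxylase and the entry to the polyamines, read 6.07, 6.24, 6.11 and 6.13 in the control livers and 7.43, 7.23, 7.23 and 7.26 in the MCD livers (log2 fold change 1.15 ± 0.09 SE, limma adjusted p = 1.09e-06), all 4 MCD livers above all 4 controls. Smox, which oxidizes spermine back to spermidine, rose 5.58-fold (2.48 ± 0.37), and Paox, the peroxisomal oxidase of acetylated polyamines, fell by 1.09.

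Sphingolipids share the phosphocholine head group. Of 46 genes of their metabolism, 19 passed as higher and 11 as lower (29 and 4 with total-read scaling, 19 and 9 with quantile normalization). Ceramide synthase Cers6 rose by 0.71, and the sphingomyelinases Smpd3 and Smpdl3b rose by 1.07 and 1.97. Sphk1, a kinase that makes sphingosine 1-phosphate, rose from low levels, with 4, 3, 3 and 1 reads in the control livers and 12, 24, 14 and 22 reads in the MCD livers. Degs2, which makes phytoceramide, had 3, 4, 1 and 0 reads in the control livers and 9, 23, 14 and 19 reads in the MCD livers. Downstream of the kinase, the exporter Spns2 fell by 1.03 and the receptor S1pr1 read 7.63, 7.33, 7.62 and 7.59 in the control livers and 6.53, 5.54, 6.29 and 5.46 in the MCD livers (log2 fold change −1.59 ± 0.22 SE, limma adjusted p = 0.000261). The ceramide synthesis inhibitor Ormdl2 fell by 0.93.

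Of 44 phospholipases and lysophospholipid enzymes, 15 passed as higher and 10 as lower (24 and 5 with total-read scaling, 14 and 9 with quantile normalization). Pla2g7, the plasma platelet-activating factor acetylhydrolase, and Pla2g12a, a secreted phospholipase, rose by 2.0 and 1.96. Pnpla6, which deacylates phosphatidylcholine to glycerophosphocholine, Abhd3, which cleaves phospholipids with medium-length chains, and Lpar6, a lysophosphatidic acid receptor, fell by 1.30, 1.27 and 1.44. Among 37 eicosanoid genes, 10 passed as higher and 9 as lower (19 and 8 with total-read scaling, 4 and 10 with quantile normalization). Both prostaglandin D synthases moved, in opposite directions: the haematopoietic enzyme Hpgds read 0.99, 0.69, 0.59 and 1.10 in the control livers and 3.06, 3.24, 3.18 and 2.96 in the MCD livers (log2 fold change 2.27 ± 0.18 SE, limma adjusted p = 1.16e-06), and the lipocalin enzyme Ptgds read 2.11, 2.0, 1.44 and 1.35 in the control livers and −0.07, −1.77, −0.30 and −1.15 in the MCD livers (log2 fold change −2.55 ± 0.37 SE, limma adjusted p = 0.000149). Cyp4f14, an omega-hydroxylase of leukotrienes with close paralogs, fell by 2.89, Ephx2, the epoxide hydrolase of fatty acid epoxides, by 1.18, and Ptges, microsomal prostaglandin E synthase, by 1.57. Cbr3, a carbonyl reductase, rose 19.1-fold (4.25 ± 0.69), with MCD replicate 4 highest.

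Peroxisomes burn very-long-chain and branched fatty acids and several small oxidase substrates. Of 44 genes, 6 passed as higher and 20 as lower (17 and 11 with total-read scaling, 9 and 20 with quantile normalization), and the median of the list was −0.23, 0.19 and −0.16, so the sign of the median depended on the scale. Pipox, which oxidizes pipecolate from lysine and sarcosine from methylglycines, read 8.76, 8.84, 8.77 and 8.84 in the control livers and 6.21, 5.83, 6.22 and 5.52 in the MCD livers (log2 fold change −2.86 ± 0.14 SE, limma adjusted p = 3.29e-08), or 7.26-fold lower. Uox, urate oxidase, read 11.26, 11.38, 11.21 and 11.23 in the control livers and 9.26, 8.88, 9.33 and 8.61 in the MCD livers (log2 fold change −2.26 ± 0.15 SE, limma adjusted p = 3.39e-07). Hao1, the glycolate oxidase, fell by 2.07 and Cat, the catalase that removes the peroxide, by 1.52, from 11.73, 11.82, 11.93 and 11.76 in the control livers and 10.26, 10.28, 10.49 and 10.12 in the MCD livers. The diets did not overlap in any of these 4. A second set rose: Hao2, the long-chain hydroxyacid oxidase (2.42 ± 0.48), the acyl-CoA thioesterase Acot3 (3.51 ± 0.48), the very-long-chain acyl-CoA importer Abcd2 (1.87 ± 0.34) and Pex11a, which divides peroxisomes (0.88 ± 0.12).

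The breakdown of amino acids fell across most routes measured. For branched-chain amino acids, 1 passed as higher and 15 as lower of 26 (5 and 11 with total-read scaling, 3 and 12 with quantile normalization). Ppm1k, the phosphatase that switches on the branched-chain ketoacid dehydrogenase, Acadsb, the short/branched-chain acyl-CoA dehydrogenase, and Mccc2, a subunit of methylcrotonyl-CoA carboxylase, fell by 1.39, 1.35 and 1.2. The 1 gene higher was Oxct1, the enzyme that lets tissues use ketone bodies, which normal hepatocytes hardly express (0.99 ± 0.15). For aromatic amino acids, lysine, histidine, glycine and proline, 2 passed as higher and 23 as lower of 35 (6 and 15 with total-read scaling, 4 and 16 with quantile normalization), and the median was −0.66, −0.23 and −0.26. Aass and Aldh7a1, consecutive enzymes of lysine breakdown in different compartments, fell by 1.52 and 1.36, beside Pipox of the peroxisomal lysine route. Prodh2, hydroxyproline dehydrogenase, fell by 1.67.

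The same list also held the synthesis of proline. Pycr1, the mitochondrial reductase that makes proline, had 1, 1, 3 and 2 reads in the control livers and 28, 50, 18 and 91 reads in the MCD livers, every MCD library above every control library (log2 fold change 3.92 ± 0.53 SE, limma adjusted p = 8.39e-05). Aldh18a1, which makes the shared precursor from glutamate, read 1.61, 0.20, 1.25 and 0.91 in the control livers and 3.56, 4.06, 3.49 and 4.19 in the MCD livers (log2 fold change 2.83 ± 0.28 SE, limma adjusted p = 9.02e-06). These 2 synthesis genes were the 2 of the list that rose.

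**Figure D2:**
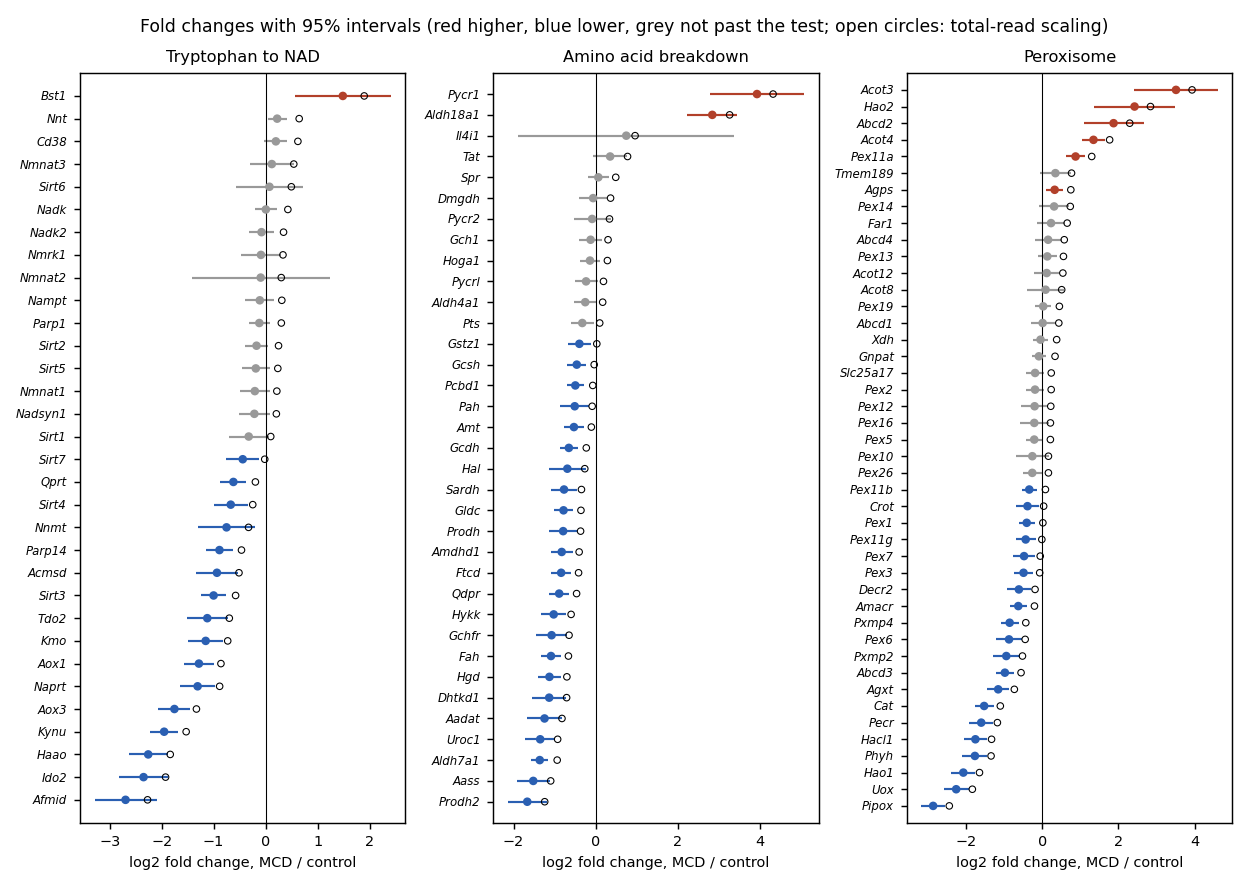
Log2 fold change, MCD over control, of each tested gene of NAD synthesis from tryptophan, of amino acid breakdown and of peroxisomes, with 95% intervals from limma (filled, authors' scale) and the value with total-read scaling (open circles). Afmid at −2.70, Prodh2 at −1.67 and Pipox at −2.86 end the 3 panels, and Pycr1 at 3.92 and Aldh18a1 at 2.83 stand at the top of the middle one.

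Tryptophan reaches NAD through kynurenine and quinolinate. Of 32 genes of this route and of NAD use, 1 passed as higher and 16 as lower (8 and 12 with total-read scaling, 2 and 15 with quantile normalization). Ido2, a dioxygenase of the first step, read 7.30, 7.52, 7.29 and 7.36 in the control livers and 5.51, 4.75, 5.41 and 4.40 in the MCD livers (log2 fold change −2.35 ± 0.22 SE, limma adjusted p = 1.4e-05). Afmid, the formamidase of the second step, read 6.57, 7.0, 6.81 and 7.05 in the control livers and 4.72, 3.70, 4.64 and 3.58 in the MCD livers (log2 fold change −2.70 ± 0.27 SE, limma adjusted p = 4.06e-05). Haao, which makes the direct precursor of quinolinate, read 8.58, 8.66, 8.39 and 8.28 in the control livers and 6.38, 5.74, 6.66 and 6.10 in the MCD livers (log2 fold change −2.26 ± 0.17 SE, limma adjusted p = 1.27e-06). All 3 were lower in every MCD liver. Kynureninase (Kynu), kynurenine monooxygenase (Kmo) and tryptophan dioxygenase (Tdo2), named after their values were seen, fell by 1.95, 1.15 and 1.12. Acmsd, which diverts the same intermediate away from NAD, fell by 0.94. Nampt, the rate-limiting enzyme of the salvage route, was at −0.11 ± 0.13 and did not pass, with its sign turned under total-read scaling and quantile normalization.

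Of 37 retinoid genes, 7 passed as higher and 14 as lower (14 and 7 with total-read scaling, 8 and 8 with quantile normalization). Aldh1a2, a retinoic acid-forming dehydrogenase with a high level in stellate and mesothelial cells, read 2.86, 0.86, 3.15 and 2.57 in the control livers and −1.45, −1.58, −2.10 and −1.49 in the MCD livers (log2 fold change −4.02 ± 0.43 SE, limma adjusted p = 1.7e-05), or 16.2-fold lower. In mouse, Aldh1a7 is a close relative of another aldehyde dehydrogenase and rose by 1.17, Lrat, which esterifies retinol, rose by 0.69, and Dhrs9, a retinol dehydrogenase, rose by 2.16. Bco2, which cleaves carotenoids, and Rdh7 fell by 1.43 and 1.78. For other vitamins, 11 passed as higher and 15 as lower of 39 (17 and 7 with total-read scaling, 13 and 10 with quantile normalization). Lrp2, the large endocytic receptor megalin, fell by 2.90, Cyp2r1, the vitamin D 25-hydroxylase, by 1.57, and Rgn, regucalcin, a lactonase, by 1.83. Vnn1, a pantetheinase that recycles pantothenate, rose by 1.6, and Slc19a3, a thiamine transporter, had 4, 2, 5 and 3 reads in the control livers and 25, 13, 19 and 27 reads in the MCD livers.

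Of 27 haem genes, 5 passed as higher and 10 as lower (10 and 7 with total-read scaling, 6 and 9 with quantile normalization). Hmox1, the inducible haem oxygenase, rose by 1.29, and 2 haem transporters rose with it, Slc48a1 by 0.65 and Mfsd7c by 2.09. Alas2, the erythroid form of the first enzyme of haem synthesis, read 7.90, 7.91, 8.32 and 8.12 in the control livers and 5.94, 5.68, 6.26 and 5.71 in the MCD livers (log2 fold change −2.16 ± 0.14 SE, limma adjusted p = 2.85e-07), and the mitochondrial carrier Abcb10, which works beside it, fell by 1.83. The red cell genes Slc4a1 and Klf1 were at −1.16 ± 0.82 and −0.95 ± 0.40 and did not pass on the authors' scale, but passed as lower with quantile normalization (−2.06 and −1.62). The part of blood left in the tissue was not tested.

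Metallothioneins bind zinc and copper through their cysteines. Mt1 (chr8:94179089-94180327 in mm10) read 0.80, 0.98, 0.42 and 0.02 in the control livers and 2.92, 4.28, 3.73 and 5.51 in the MCD livers (log2 fold change 3.56 ± 0.49 SE, limma adjusted p = 0.000367), and its neighbour Mt2 (chr8:94172618-94173567) read −0.95, −0.25, −1.14 and −1.06 in the control livers and 2.64, 4.06, 3.31 and 5.33 in the MCD livers (log2 fold change 4.69 ± 0.49 SE, limma adjusted p = 4.35e-05). The folds were 11.8-fold and 25.8-fold, with no overlap between diets. The 4 MCD libraries were in 1 order in both genes, replicate 1 lowest, then 3, then 2, and replicate 4 highest. These are the 2 genes of the list whose control is best known: the zinc sensor MTF-1 binds metal response elements near their starts. The windows of 250 bases before to 50 after each start, from RefSeq on GRCm38.p6, are shown because the 2 genes moved together, with matches to TGCACNC or TGCGCNC on either strand in capitals (Mt1, chr8:94178839-94179138, plus strand, and Mt2, chr8:94172368-94172667, plus strand).
Mt1: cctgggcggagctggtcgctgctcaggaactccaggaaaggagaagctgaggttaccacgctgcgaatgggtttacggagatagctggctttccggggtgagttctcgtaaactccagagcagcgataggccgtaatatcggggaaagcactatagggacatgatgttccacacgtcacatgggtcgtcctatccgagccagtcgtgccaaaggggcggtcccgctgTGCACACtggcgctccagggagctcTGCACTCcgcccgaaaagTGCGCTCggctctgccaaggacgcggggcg
Mt2: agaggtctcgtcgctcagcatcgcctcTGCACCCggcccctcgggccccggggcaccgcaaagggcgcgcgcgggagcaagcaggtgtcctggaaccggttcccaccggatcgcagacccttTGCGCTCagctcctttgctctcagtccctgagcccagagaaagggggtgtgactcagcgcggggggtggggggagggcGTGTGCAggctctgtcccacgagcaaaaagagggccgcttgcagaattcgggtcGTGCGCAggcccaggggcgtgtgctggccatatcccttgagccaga
Mt1 held 3 matches, with first bases at −23, 3 and 21 from the start (base 1), and Mt2 held 4, at −223, −128, −50 and 5. Of 32851 RefSeq windows of this length, 25.7% held at least 1 match and 1.97% at least 3. The match is a description of letters. Of the 34 genes of zinc and copper handling, 9 passed as higher and 8 as lower (19 and 4 with total-read scaling, 9 and 6 with quantile normalization), with 5 lower when control replicate 3 was left out. The zinc exporter Slc30a1, another known target of MTF-1, was at 0.13 ± 0.13 and did not pass, but passed as higher with total-read scaling (0.55). Slc30a10, the manganese exporter, fell by 1.49, and the copper-zinc superoxide dismutase Sod1 and its copper chaperone Ccs fell by 0.91 and 0.98.

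Of 29 selenium genes, 6 passed as higher and 10 as lower (14 and 6 with total-read scaling, 8 and 7 with quantile normalization). Selenbp2, a selenium-binding protein with a near-identical relative (Selenbp1), read 8.45, 8.81, 9.17 and 10.05 in the control livers and 4.58, 2.80, 3.62 and 3.26 in the MCD livers (log2 fold change −5.56 ± 0.46 SE, limma adjusted p = 7.17e-05), or 47.1-fold lower. The control values spanned more than 1 log2 unit, with replicate 4 highest, yet stayed far above every MCD value. Selenbp1, named after its value was seen, fell by 0.87. Dio1, the deiodinase that activates thyroid hormone, fell by 1.81, and Msrb1, a methionine sulfoxide reductase, by 1.24. The glutathione peroxidases Gpx3 and Gpx4 rose by 1.64 and 0.74.

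**Figure D3:**
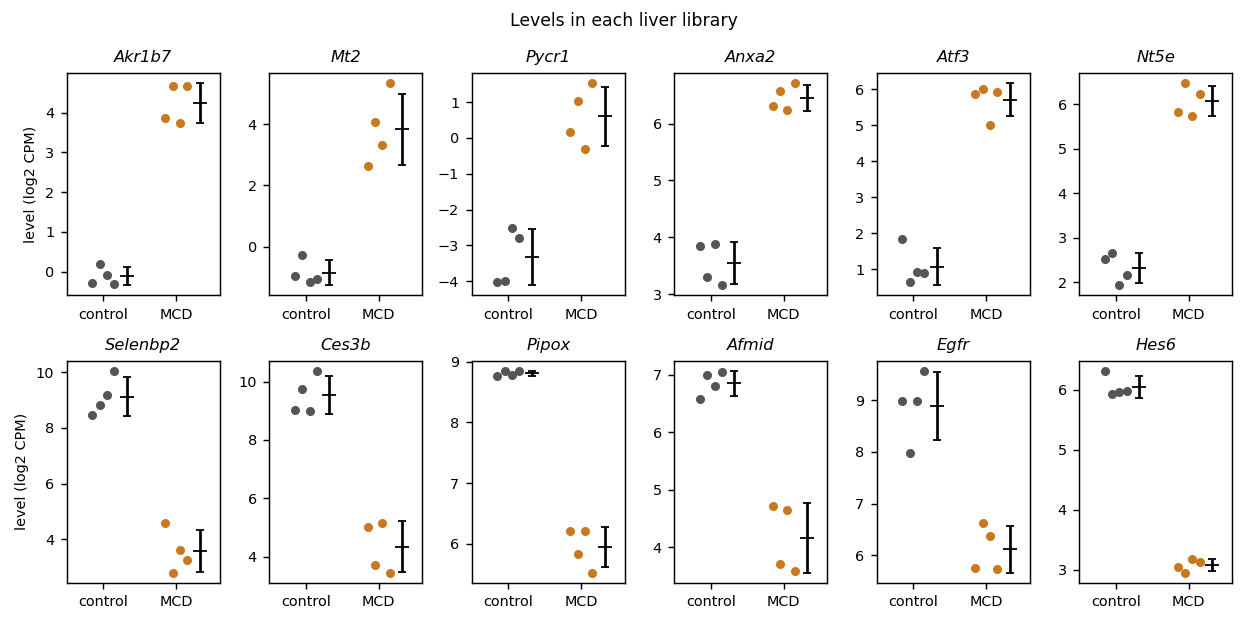
Level in log2 CPM of 12 genes in each of the 4 control (grey) and 4 MCD (orange) libraries, with the mean and SD of each diet in black; the axes do not start at 0. In all 12 the diets do not overlap; Akr1b7 is at 0.20 or less on the control diet and 3.74 or more on MCD, and Hes6 at 5.93 or more and 3.18 or less.

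Alcohol and aldehyde dehydrogenases and aldo-keto reductases clear reactive carbonyls and also act on retinoids, steroids and sugars. Of the 41 genes of alcohol, aldehyde and keto reduction and their relatives, 11 passed as higher and 18 as lower (18 and 12 with total-read scaling, 12 and 12 with quantile normalization). Akr1b7, an aldose reductase-like enzyme that detoxifies lipid aldehydes, read −0.28, 0.20, −0.08 and −0.30 in the control livers and 3.88, 4.68, 3.74 and 4.66 in the MCD livers (log2 fold change 4.35 ± 0.24 SE, limma adjusted p = 7.22e-08). Akr1c18, which inactivates progesterone and has close paralogs, had 0, 3, 3 and 0 reads in the control livers and 44, 92, 27 and 124 reads in the MCD livers. In the same list Adh4, an alcohol and retinol dehydrogenase, fell by 2.36, Khk, the first enzyme of fructose use, by 1.36 and Akr1c14 by 1.27.

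Carboxylesterases hydrolyse esters of drugs and lipids and lie in clusters of close paralogs, between which reads may be split. Of 24 genes, 4 passed as higher and 12 as lower (8 and 9 with total-read scaling, 4 and 11 with quantile normalization). Ces3b read 9.04, 9.74, 8.98 and 10.37 in the control livers and 5.00, 3.72, 5.16 and 3.45 in the MCD livers (log2 fold change −5.20 ± 0.50 SE, limma adjusted p = 0.000172), or 36.8-fold lower, and its neighbour Ces3a read 11.59, 11.68, 11.50 and 12.12 in the control livers and 9.32, 8.12, 9.26 and 8.35 in the MCD livers (log2 fold change −2.96 ± 0.27 SE, limma adjusted p = 1.76e-05). In Ces3b and Ces3a alike, control replicate 4 was the highest library. Ces2a and Ces1d, the latter a triglyceride hydrolase, fell by 2.87 and 1.62, and Nceh1, the neutral cholesteryl ester hydrolase of macrophages, rose by 0.87. Of 22 genes of glucuronidation, 3 passed as higher and 10 as lower (8 and 9 with total-read scaling, 7 and 10 with quantile normalization). Ugt2b1 read 10.74, 10.71, 11.10 and 11.58 in the control livers and 8.35, 8.16, 8.04 and 7.83 in the MCD livers (log2 fold change −2.94 ± 0.18 SE, limma adjusted p = 2.81e-07), Ugt2a3 fell by 2.22, and Ugt2b37 and Ugt1a7c rose by 1.49 and 2.59. Gusb, the lysosomal enzyme that removes glucuronate, rose by 0.85.

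Of 31 basement membrane genes, 13 passed as higher and 3 as lower (20 and 2 with total-read scaling, 11 and 4 with quantile normalization). Smoc2, a secreted calcium-binding matrix protein, read 3.51, 3.25, 3.79 and 3.42 in the control livers and 6.94, 7.56, 7.06 and 7.23 in the MCD livers (log2 fold change 3.71 ± 0.15 SE, limma adjusted p = 5.36e-09), or 13.1-fold higher. Lamb3, the laminin beta chain of epithelial anchorage, read −0.57, 0.13, −0.35 and −0.19 in the control livers and 2.31, 2.29, 2.94 and 3.17 in the MCD livers (log2 fold change 2.92 ± 0.26 SE, limma adjusted p = 2.83e-06). The 2 nidogens, which link laminin to type IV collagen, parted: Nid1 read 5.05, 4.73, 5.07 and 4.84 in the control livers and 6.10, 6.18, 6.08 and 6.31 in the MCD livers (log2 fold change 1.24 ± 0.10 SE, limma adjusted p = 2e-06) and Nid2 read 4.18, 3.55, 4.36 and 3.61 in the control livers and 2.47, 2.72, 2.45 and 2.72 in the MCD livers (log2 fold change −1.33 ± 0.19 SE, limma adjusted p = 0.00011). The diets did not overlap in either nidogen. Lama2 rose by 1.02 and Fras1 fell by 1.07.

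Of 47 proteoglycans and matricellular genes, 21 passed as higher and 6 as lower (29 and 5 with total-read scaling, 18 and 7 with quantile normalization). The large proteoglycan Vcan rose by 2.28, the fibril-organizing Lum by 1.64, the cell-surface Gpc3 by 2.35 and the hyaluronan receptor Cd44 by 1.11. Sdc4, a syndecan, fell by 1.49, and Vtn, the plasma adhesion protein vitronectin made by hepatocytes, by 1.17. For integrins and focal adhesions, 18 passed as higher and 4 as lower of 41 (31 and 2 with total-read scaling, 16 and 4 with quantile normalization). Itgam and Itgax, the alpha chains of myeloid integrins, rose by 2.44 and 2.62. Fermt1, the epithelial kindlin that activates integrins, rose by 3.62, while Parva and Lims2, partners of integrin-linked kinase, fell by 0.96 and 1.41. Cell junctions changed both ways: 8 passed as higher and 11 as lower of 46 (22 and 5 with total-read scaling, 12 and 6 with quantile normalization). Gjb1, connexin 32 and the main hepatocyte gap junction protein, fell by 1.12, while Gja1, connexin 43, rose by 0.85. The tight junction genes Tjp3, Cldn14 and Cgn fell by 1.30, 1.26 and 1.13.

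Of 54 actin and myosin genes, 22 passed as higher and 4 as lower (43 and 2 with total-read scaling, 32 and 3 with quantile normalization). Actb, beta-actin, rose by 0.59. Capg, which caps actin filaments in macrophages and moving cells, read 1.26, 0.13, 0.01 and 0.36 in the control livers and 3.13, 2.62, 3.41 and 3.61 in the MCD livers (log2 fold change 2.75 ± 0.29 SE, limma adjusted p = 1.44e-05). Ezr and Vil1, organizers of microvilli, rose by 0.77 and 1.63. Pls3, a plastin that bundles actin, fell by 0.98. Of 33 tubulins and microtubule genes, 9 passed as higher and 2 as lower (21 and 1 with total-read scaling, 10 and 3 with quantile normalization), led by Tuba8 (2.75 ± 0.20), Tubb6 (2.42 ± 0.33) and Stmn1 (1.76 ± 0.24), which destabilizes microtubules. Arhgef2, an activator of RhoA held on microtubules, is outside this list and its counts. Arhgef2 read 2.59, 2.19, 2.66 and 2.10 in the control livers and 6.40, 6.42, 6.01 and 6.41 in the MCD livers (log2 fold change 3.93 ± 0.15 SE, limma adjusted p = 3.75e-09).

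Keratins form the filaments of epithelia, annexins bind membranes when calcium rises, and S100 proteins bind annexins and calcium. Of 37 genes in this list, 22 passed as higher and 5 as lower (26 and 1 with total-read scaling, 20 and 5 with quantile normalization), with 3 lower when control replicate 2 or MCD replicate 1 was left out, and the median was 1.04, 1.47 and 0.65 against 0.07, 0.49 and 0.00 over all genes. Anxa2 read 3.85, 3.30, 3.88 and 3.15 in the control livers and 6.30, 6.57, 6.23 and 6.71 in the MCD livers (log2 fold change 2.91 ± 0.17 SE, limma adjusted p = 2.29e-07). S100a11, an S100 protein that binds annexins, read 2.93, 2.54, 3.13 and 2.4 in the control livers and 4.90, 5.43, 4.77 and 5.40 in the MCD livers (log2 fold change 2.37 ± 0.19 SE, limma adjusted p = 1.94e-06). Every MCD library exceeded every control library in both. Anxa5 and S100a6 rose by 1.31 and 1.09 and the mesenchymal filament Vim by 0.72. S100g, a calcium buffer of gut and kidney, had 3, 1, 2 and 2 reads in the control livers and 66, 63, 56 and 39 reads in the MCD livers. Krt20, a keratin of gut and urothelium, had 0, 0, 0 and 0 reads in the control livers and 53, 66, 39 and 54 reads in the MCD livers, at least 48.8-fold higher against a floor of 3 reads over the 4 control libraries. S100a1, abundant in muscle, fell by 1.02.

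Annexin 2 and S100A11 promoters are shown because AP-1 subunits rose in the same livers. Matches on either strand to TGANTCA (N, any base), a loose form of the AP-1 element, are in capitals (RefSeq, GRCm38.p6: Anxa2, chr9:69453433-69453732, plus strand, and S100a11, chr3:93520246-93520545, plus strand).
Anxa2: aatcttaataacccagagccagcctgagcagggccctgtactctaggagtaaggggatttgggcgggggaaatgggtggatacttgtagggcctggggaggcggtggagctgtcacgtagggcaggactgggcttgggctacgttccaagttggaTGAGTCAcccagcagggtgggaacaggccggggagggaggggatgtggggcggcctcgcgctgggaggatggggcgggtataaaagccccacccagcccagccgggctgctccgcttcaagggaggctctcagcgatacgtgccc
S100a11: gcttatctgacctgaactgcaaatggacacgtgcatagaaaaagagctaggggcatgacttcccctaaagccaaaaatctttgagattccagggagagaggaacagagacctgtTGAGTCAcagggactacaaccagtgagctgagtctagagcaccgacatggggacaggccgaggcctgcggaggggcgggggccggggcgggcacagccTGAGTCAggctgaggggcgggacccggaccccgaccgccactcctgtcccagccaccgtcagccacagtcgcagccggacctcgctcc
Anxa2 held 1 match, first base at −95, and S100a11 held 2, at −136 and −38. Both were picked after the matches were seen. The matches are a description of letters, and whether AP-1 acts on either gene was not tested. Among the 28 tested genes of the list with a window, 4 held a match in at least 1 window (14.3% of genes). Of all 32851 windows, 7.81% held a match. The first share is per gene and the second per window, so they cannot be set against each other.

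AP-1 factors and other immediate-early genes are switched on within minutes of a growth or stress signal, without new protein synthesis. Of 37 genes, 19 passed as higher and 2 as lower (25 and 1 with total-read scaling, 19 and 3 with quantile normalization), with a median of 0.96, 1.39 and 0.81. Atf3, a stress-induced partner of AP-1, read 1.83, 0.64, 0.92 and 0.91 in the control livers and 5.87, 6.00, 5.02 and 5.91 in the MCD livers (log2 fold change 4.62 ± 0.28 SE, limma adjusted p = 4.62e-07), or 24.6-fold higher. Fosl1, a Fos family subunit, had 1, 0, 0 and 0 reads in the control livers and 19, 41, 14 and 39 reads in the MCD livers. Egr2 had 7, 3, 2 and 4 reads in the control livers and 77, 63, 71 and 106 reads in the MCD livers (log2 fold change 3.82 ± 0.37 SE, limma adjusted p = 5.85e-06). All MCD libraries exceeded all control libraries in these 3. Fos itself and Klf6 rose by 1.54 and 1.46. Zfp36l1, which degrades short-lived messenger RNAs, fell by 1.19.

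**Figure D4:**
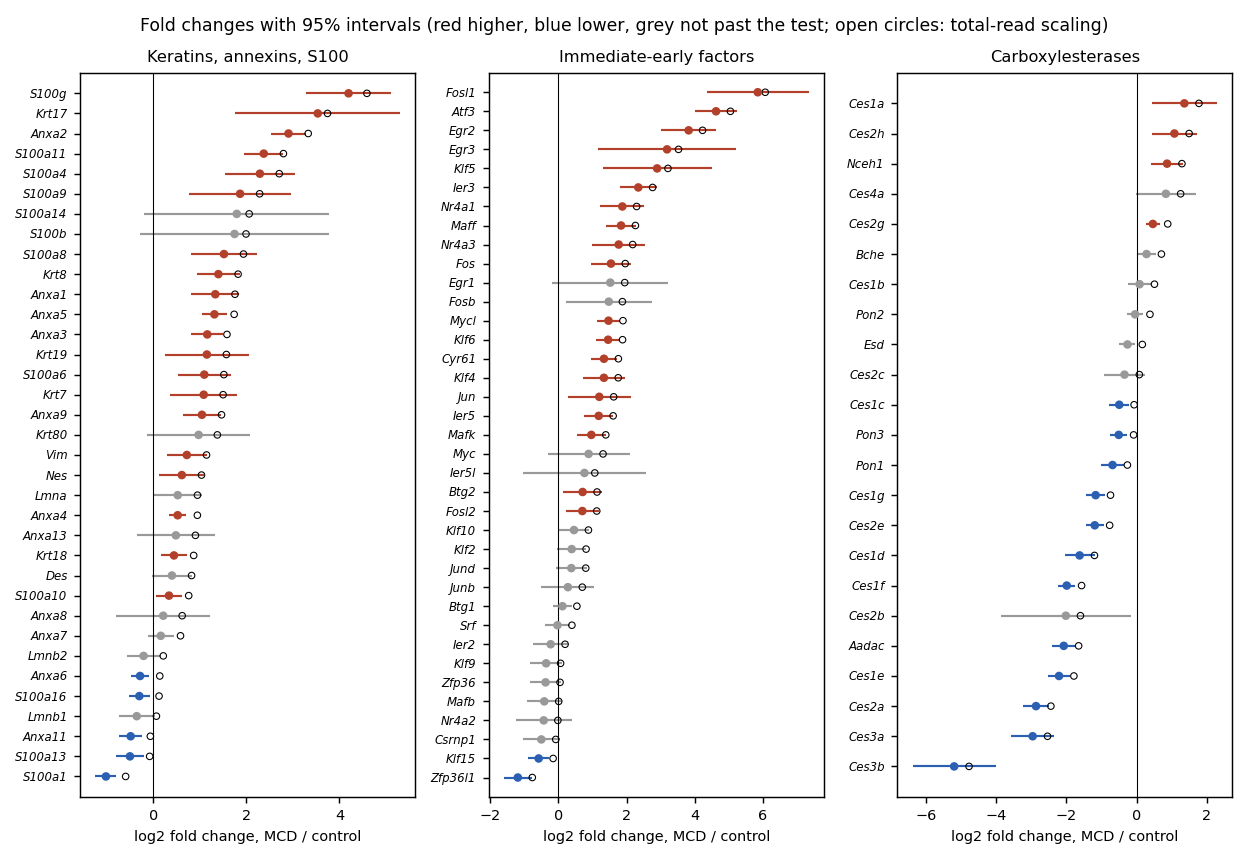
Log2 fold change, MCD over control, with 95% limma intervals (filled points, authors' scale; open circles, total-read scaling) of the tested keratin, annexin and S100 genes, immediate-early factors and carboxylesterases. Genes with no read in 1 diet (such as Krt20) are left out. Most of the first 2 panels lies to the right of 0, and Ces3b at −5.20 and Ces3a at −2.96 end the third.

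Of 35 genes that feed back on these signals, 10 passed as higher and 4 as lower (21 and 2 with total-read scaling, 11 and 6 with quantile normalization), with 2 lower when control replicate 4 or MCD replicate 4 was left out. The MAP kinase phosphatases Dusp2, Dusp5 and Dusp9 rose by 2.43, 2.27 and 2.49, each from fewer than 20 reads over the control libraries. Cish, the cytokine inhibitor that STAT5 induces, read 5.41, 5.94, 4.93 and 6.14 in the control livers and 3.99, 3.22, 2.80 and 3.10 in the MCD livers (log2 fold change −2.33 ± 0.31 SE, limma adjusted p = 0.000274). Spry4, an inhibitor of receptor tyrosine kinases, fell by 1.90.

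Growth factor receptors and ligands included both directions. Of 49 genes, 14 passed as higher and 13 as lower (22 and 7 with total-read scaling, 7 and 15 with quantile normalization). Egfr, the epidermal growth factor receptor of hepatocytes, read 8.98, 7.99, 8.98 and 9.57 in the control livers and 5.75, 6.63, 6.37 and 5.73 in the MCD livers (log2 fold change −2.76 ± 0.35 SE, limma adjusted p = 0.00035), or 6.78-fold lower. Met, the hepatocyte growth factor receptor, fell by 0.70. Nrg1, a ligand of the ERBB3 and ERBB4 receptors, read −0.19, −1.64, 0.01 and −1.06 in the control livers and 2.31, 3.09, 1.68 and 3.31 in the MCD livers (log2 fold change 3.32 ± 0.42 SE, limma adjusted p = 7.31e-05), and Pdgfa and the receptor Fgfr1 rose by 1.13 and 0.77. Fgf1 and Vegfb fell by 1.75 and 1.25.

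For Notch, bone morphogenetic protein (BMP) and activin signalling, 13 passed as higher and 10 as lower of 50 (25 and 4 with total-read scaling, 11 and 13 with quantile normalization). Fst, follistatin, a secreted trap for activins, read 3.18, 3.52, 4.03 and 3.58 in the control livers and 0.20, 0.55, −0.56 and 0.27 in the MCD livers (log2 fold change −3.46 ± 0.25 SE, limma adjusted p = 6.97e-07), or 11-fold lower. The activin subunits Inhbb and Inhbe, which hepatocytes make, rose by 1.46 and 0.77. Hes6, a relative of the Notch target HES1 that opposes it, read 6.32, 5.93, 5.97 and 5.98 in the control livers and 3.05, 2.95, 3.18 and 3.13 in the MCD livers (log2 fold change −2.97 ± 0.11 SE, limma adjusted p = 3.92e-09), with the 4 MCD livers close together. Id1, a BMP target, read 1.73, 1.51, 1.29 and 0.57 in the control livers and 3.78, 3.32, 3.15 and 3.63 in the MCD livers (log2 fold change 2.20 ± 0.24 SE, limma adjusted p = 1.85e-05), and Bmp4 fell by 2.29. Of 52 axon guidance genes, 14 passed as higher and 9 as lower (24 and 3 with total-read scaling, 9 and 9 with quantile normalization), among them Epha2, a rise of 0.83, and its ligand Efna1, a fall of 1.01.

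Extracellular ATP is cut to adenosine at the cell surface, and purines and pyrimidines are broken down inside. Of 61 genes, 17 passed as higher and 14 as lower (36 and 8 with total-read scaling, 15 and 9 with quantile normalization). Nt5e, the ectoenzyme CD73 that makes adenosine from AMP, read 2.52, 2.66, 1.93 and 2.16 in the control livers and 5.83, 6.47, 5.74 and 6.23 in the MCD livers (log2 fold change 3.75 ± 0.19 SE, limma adjusted p = 5.69e-08), or 13.4-fold higher. Dpys, dihydropyrimidinase, read 7.63, 7.93, 7.62 and 7.59 in the control livers and 5.01, 4.28, 5.02 and 3.96 in the MCD livers (log2 fold change −3.13 ± 0.22 SE, limma adjusted p = 2.64e-06). The nucleotide receptor P2ry4 fell by 2.21, and Dctd, deoxycytidylate deaminase, had 2, 0, 1 and 2 reads in the control livers and 53, 50, 25 and 43 reads in the MCD livers. Tymp, thymidine phosphorylase, fell by 2.56. The diets did not overlap in Nt5e or Dpys.

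Of 56 ion and water channels, 19 passed as higher and 10 as lower (32 and 7 with total-read scaling, 16 and 11 with quantile normalization). Scnn1a, the alpha subunit of the epithelial sodium channel, read 5.36, 5.57, 5.12 and 5.39 in the control livers and 1.89, 0.55, 2.38 and 1.02 in the MCD livers (log2 fold change −3.90 ± 0.35 SE, limma adjusted p = 1.84e-05), or 15-fold lower. Aquaporins diverged: Aqp8, of hepatocyte canaliculi and mitochondria, read 8.61, 8.30, 8.01 and 7.37 in the control livers and 6.40, 5.86, 6.45 and 5.97 in the MCD livers (log2 fold change −1.90 ± 0.25 SE, limma adjusted p = 0.000208), Aqp4 rose by 1.36, and Aqp7, a glycerol channel of fat, had 0, 0, 0 and 0 reads in the control livers and 48, 84, 43 and 96 reads in the MCD livers, at least 62.3-fold higher against the floor of 3 reads.

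Of 53 nuclear receptors and hepatocyte transcription factors, 5 passed as higher and 19 as lower (13 and 10 with total-read scaling, 3 and 17 with quantile normalization). Cebpa, a factor that holds hepatocytes in their mature state, fell by 0.80, Bcl6, a repressor whose level depends on growth hormone and feeding, by 1.91, and Thrsp, a thyroid- and carbohydrate-responsive nuclear protein, by 4.11. Tox3 rose from 6 reads over the control libraries to 43 over the MCD libraries. Hnf4a and Ppara were lower by 0.43 and 0.54 on the authors' scale, and neither kept its call with total-read scaling or quantile normalization, and Hnf4a read 0.29 higher under the latter.

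Ribosomes are assembled in the nucleolus from RNA that is methylated and otherwise modified there. Of 58 nucleolar and ribosome biogenesis genes, 26 passed as higher and 0 as lower (56 and 0 with total-read scaling, 29 and 0 with quantile normalization), and none was lower at an unadjusted p under 0.05 by limma or called lower by voom. Rrp12, an export factor of the small subunit, read 2.24, 2.09, 2.20 and 2.25 in the control livers and 3.83, 4.14, 3.59 and 4.2 in the MCD livers (log2 fold change 1.75 ± 0.16 SE, limma adjusted p = 3.12e-06). Nhp2, a subunit of the complex that converts uridine to pseudouridine in ribosomal RNA, read 3.22, 3.23, 3.14 and 2.80 in the control livers and 4.37, 4.64, 4.61 and 5.02 in the MCD livers (log2 fold change 1.56 ± 0.15 SE, limma adjusted p = 6.86e-06), and its partner Gar1 rose by 1.43. Nop56, of the ribosomal RNA methylation complex, and nucleolin (Ncl) rose by 0.82 and 0.73. Fbl, the methyltransferase of that complex, was at 0.07 ± 0.12 and did not pass, but passed as higher with total-read scaling (0.49). Of 64 translation factors, 20 passed as higher and 9 as lower (46 and 3 with total-read scaling, 32 and 6 with quantile normalization), with 5 lower when control replicate 2, control replicate 4 or MCD replicate 3 was left out. Eif6, which keeps the large subunit from joining too early, and Eif4ebp1, the inhibitor of cap binding, rose by 1.14 and 0.98, and the kinase Eif2ak2 fell by 0.82. Mitochondrial ribosomal proteins were near balance: 15 passed as higher and 11 as lower of 76 (52 and 0 with total-read scaling, 16 and 13 with quantile normalization), with Mrpl54 at 1.09 ± 0.15 the largest rise.

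**Figure D5:**
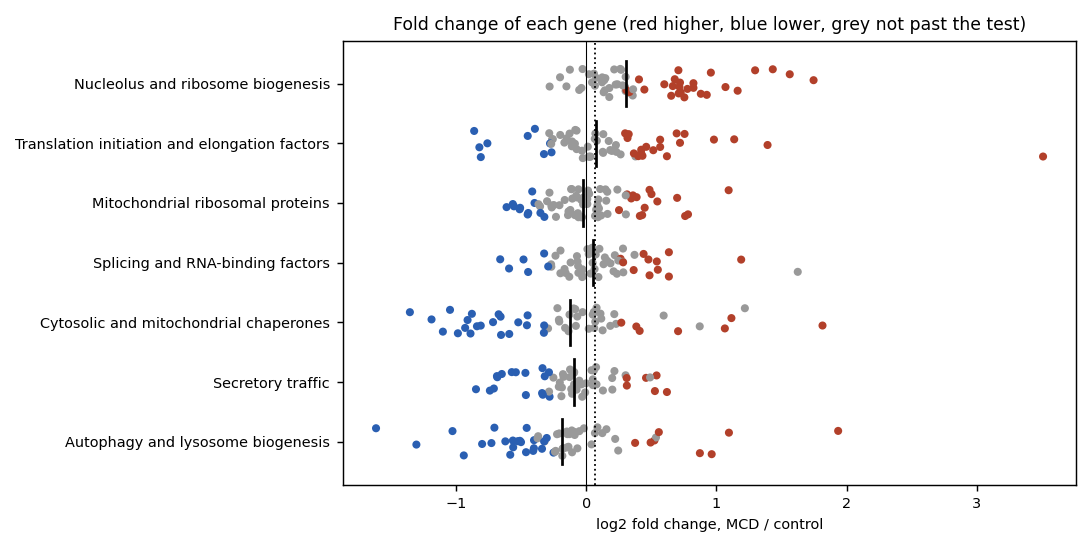
Log2 fold change, MCD over control, of every tested gene in 7 lists of RNA, protein and organelle upkeep on the authors' scale (red higher, blue lower, grey not past the test; vertical position within a list has no meaning). Black bars are list medians and the dotted line is the median of all genes, 0.07. The nucleolar median lies to its right and that list has no blue point. The chaperone, secretory, autophagy, splicing and mitochondrial ribosomal medians lie to its left. With quantile normalization the secretory, splicing and mitochondrial ribosomal medians were 0.168, 0.23 and 0.019, against 0.002 over all genes.

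The split among 55 cytosolic and mitochondrial chaperones turned with the scale: 7 passed as higher and 21 as lower (23 and 7 with total-read scaling, 14 and 17 with quantile normalization). Hsph1, which recharges HSP70, read 7.06, 7.04, 8.11 and 7.16 in the control livers and 6.44, 6.34, 5.87 and 5.97 in the MCD livers (log2 fold change −1.19 ± 0.24 SE, limma adjusted p = 0.00267), and Fkbp4, an HSP90 cofactor of the glucocorticoid receptor, fell by 1.10. Fkbp5, its paralog and a classical glucocorticoid target, rose, with 4.63, 4.72, 4.54 and 5.23 in the control livers and 6.32, 6.61, 6.64 and 6.8 in the MCD livers (log2 fold change 1.81 ± 0.15 SE, limma adjusted p = 2.05e-06). The mitochondrial protease Lonp1 rose by 1.11.

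Of 61 autophagy genes, 8 passed as higher and 23 as lower (21 and 4 with total-read scaling, 11 and 17 with quantile normalization), with 15 lower when control replicate 3 was left out. Ulk2, a kinase that starts autophagosomes, read 6.97, 7.25, 7.22 and 7.46 in the control livers and 5.66, 5.62, 5.71 and 5.46 in the MCD livers (log2 fold change −1.61 ± 0.11 SE, limma adjusted p = 4.26e-07). Atg16l2 and Bnip3, the latter a mitophagy receptor, fell by 1.30 and 0.94. Sqstm1, the cargo receptor p62, read 8.85, 8.74, 8.78 and 8.68 in the control livers and 9.24, 9.83, 9.33 and 10.14 in the MCD livers (log2 fold change 0.87 ± 0.17 SE, limma adjusted p = 0.00159), and Ddit4 and Sesn2, stress-induced brakes on mTORC1, rose by 1.93 and 0.96 while Sesn3 fell by 1.03. Of 60 genes of mitochondrial import, carriers and dynamics, 16 passed as higher and 8 as lower (41 and 3 with total-read scaling, 20 and 5 with quantile normalization). The uncoupling protein Ucp2 and the carrier Slc25a24 rose by 1.23 and 1.17, and Polg2, the accessory subunit of the mitochondrial DNA polymerase, fell by 1.42.

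In the secretory pathway 6 passed as higher and 16 as lower of 59 (37 and 6 with total-read scaling, 23 and 7 with quantile normalization), and the 6 became 3 without MCD replicate 2 or 4. Sar1b and Mia2, both needed to carry large lipoproteins out of the endoplasmic reticulum, fell by 0.68 and 0.65. Of 62 glycan-modifying genes, 20 passed as higher and 13 as lower (32 and 5 with total-read scaling, 15 and 12 with quantile normalization). Lgals3, a galectin of macrophages and bile duct cells, read 2.42, 2.14, 2.05 and 2.25 in the control livers and 5.12, 4.29, 5.25 and 4.90 in the MCD livers (log2 fold change 2.68 ± 0.19 SE, limma adjusted p = 5.56e-07), and Lgals1 rose by 1.56. Fut1, a fucosyltransferase that makes the H antigen, had 4, 6, 3 and 2 reads in the control livers and 82, 76, 55 and 96 reads in the MCD livers (log2 fold change 3.84 ± 0.32 SE, limma adjusted p = 2.02e-06). St6galnac6 and St3gal1, sialyltransferases, fell by 1.75 and 1.35. Cmah, which makes the sialic acid N-glycolylneuraminate, is outside this list and its counts. Cmah read 8.84, 8.65, 8.65 and 8.94 in the control livers and 6.66, 6.20, 6.62 and 5.79 in the MCD livers (log2 fold change −2.45 ± 0.17 SE, limma adjusted p = 7.5e-07).

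The B and plasma cell list summed to 11.9 to 14.7 CPM in the control livers and 12.1 to 21.4 CPM in the MCD livers, and 1 passed as higher and 0 as lower of 17 genes, with the same counts at an unadjusted p under 0.05 by limma and by voom (2 and 0 with total-read scaling, 0 and 1 with quantile normalization). Its 1 call was lost without control replicate 2 or MCD replicate 4. Neutrophil genes summed to 10.5 to 23.9 CPM in the control livers and 14.9 to 37.8 CPM in the MCD livers, and 2 passed as higher and 1 as lower of 14 (4 and 1 with total-read scaling, 2 and 2 with quantile normalization). The neutrophil median was 1.10, 1.42 and 0.38 on the 3 scales, and log2 fold changes ran from −3.41 to 4.19 on the authors' scale. Against that median, the granule gene Prtn3 had 4, 6, 18 and 3 reads in the control livers and 2, 0, 2 and 0 reads in the MCD livers. Without control replicate 3 the count of neutrophil rises was 5. Dendritic, mast cell and eosinophil genes summed to 156 to 178 CPM in the control livers and 105 to 116 CPM in the MCD livers, and 6 passed as higher and 1 as lower of 18 (12 and 1 with total-read scaling, 5 and 2 with quantile normalization). The 1 lower gene was Bst2, tetherin, which led that sum and which other cells also express (−1.49 ± 0.11). Flt3, the growth factor receptor of dendritic cell precursors, rose by 1.97, and Siglecf, a lectin of eosinophils and alveolar macrophages, had 2, 0, 1 and 0 reads in the control livers and 30, 17, 39 and 23 reads in the MCD livers. Red cell and platelet genes summed to 294 to 392 CPM in the control livers and 127 to 176 CPM in the MCD livers, and 2 passed as higher and 1 as lower of 17 (3 and 1 with total-read scaling, 1 and 5 with quantile normalization), so the balance turned with quantile normalization. Alas2, described above with haem, made up most of that sum on the control diet. The 2 rises became 1 without control replicate 1 or 2 or MCD replicate 2, 3 or 4. The adult haemoglobin genes of the table were counted over too few bases to read. Mesothelial, fat, muscle and pancreas genes summed to 50.5 to 63.8 CPM in the control livers and 24.6 to 30.0 CPM in the MCD livers, and 4 passed as higher and 1 as lower of 19 (6 and 1 with total-read scaling, 1 and 1 with quantile normalization), with 2 rises without control replicate 2 or MCD replicate 1 or 3. The median of this list was 0.085, 0.51 and −0.49 on the 3 scales, and its largest rise 3.99 on the authors' scale. Adipoq, the defining fat gene, had 23 reads over the control and 6 over the MCD libraries, but was not called. The sign of its fold change depended on which library was left out. Cela1, an elastase, led the sum of this list and was its 1 lower gene, and read 5.65, 5.52, 5.24 and 5.62 in the control livers and 3.76, 3.40, 3.61 and 3.26 in the MCD livers (log2 fold change −2.0 ± 0.13 SE, limma adjusted p = 3.65e-07). The part of these cells in the other differences was not tested.

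Outside all lists, and leaving out by name gene families such as cytochromes P450, collagens and chemokines, 11578 genes were tested, of which 2474 were higher and 2170 lower. Among abundant genes Car2, carbonic anhydrase 2, read 2.74, 2.46, 2.98 and 2.38 in the control livers and 6.18, 6.05, 6.27 and 5.85 in the MCD livers (log2 fold change 3.45 ± 0.15 SE, limma adjusted p = 8.61e-09). App, the amyloid precursor protein, rose 5.88-fold, with 5.95, 5.79, 5.85 and 5.72 in the control livers and 8.12, 8.58, 8.26 and 8.57 in the MCD livers (log2 fold change 2.55 ± 0.12 SE, limma adjusted p = 1.61e-08). Dntt, the template-free DNA polymerase of lymphocyte precursors, read 3.15, 2.46, 2.45 and 1.80 in the control livers and 5.37, 5.70, 5.29 and 5.73 in the MCD livers (log2 fold change 3.06 ± 0.24 SE, limma adjusted p = 2.39e-06). Trim24, a nuclear receptor cofactor, rose by 2.4, the membrane serine protease Tmprss2 by 2.83, and Tsku, a secreted liver protein, by 2.35. Srd5a1, steroid 5-alpha-reductase, read 8.03, 7.90, 8.08 and 7.90 in the control livers and 4.54, 3.91, 4.46 and 3.81 in the MCD livers (log2 fold change −3.80 ± 0.15 SE, limma adjusted p = 8.61e-09). Keg1, Wfdc21 and Phlda1 fell by 3.74, 3.57 and 2.95. Genes outside the lists were named only if the diets did not overlap, so for the genes of this paragraph this is a condition and not a result. Over all genes tested the share without overlap was 40.1%.

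Some genes had no read at all in 1 diet. 891 genes had none in the 4 control libraries and at least 1 on MCD, of which 43 had 20 reads or more, and 238 had the reverse, of which 1 had 20 or more. Sult2a3, a hydroxysteroid sulfotransferase with close paralogs, had 0, 0, 0 and 0 reads in the control livers and 208, 84, 183 and 76 reads in the MCD livers, at least 127-fold higher against the floor of 3 reads. Slc5a9, a sodium-coupled sugar transporter, and Slc22a12, the urate transporter URAT1 of kidney, had 171 and 126 reads over the MCD libraries, at least 39.3- and 29.0-fold higher. Csn3, kappa-casein, had 0, 0, 0 and 0 reads in the control livers and 13, 51, 6 and 29 reads in the MCD livers. In the other direction Acsl6, a long-chain acyl-CoA synthetase of brain and red cell precursors, had 12, 11, 7 and 7 reads in the control livers and 0, 0, 0 and 0 reads in the MCD livers. On the authors' scale it was at least 17.9-fold lower. All these bounds use the authors' library sizes. With total reads the bound for Acsl6 would be smaller, and those for genes without control reads larger. Floors and reads cover counting error only.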

How the data were processed

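RNA was measured by stranded poly(A) sequencing of liver from 4 libraries per diet. The authors deposited, per gene, log2 CPM values already scaled between libraries, a log2 fold change and adjusted p-values, per the file headers; the deposited p-values were not used. The submitters' processing notes name STAR 2.4.2a and mm10. The sources used here do not give how reads were counted to genes or whether strand was used. Whole reads were recovered from the steps of the log2 CPM values: 100% of values lay within 0.05 reads of a whole number. They give depth and read numbers, and voom on them was an alternative.

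Genes above the 25th percentile of mean level were fitted with limma 3.58.1 in R 4.3.3 (trend, robust) on the deposited log2 CPM, 4 MCD against 4 CD libraries, with no covariate, two-sided, and Benjamini-Hochberg adjustment over all 15312 genes (calls at 0.05). The fit was tested on simulated data. The 16 alternatives were total-read scaling, quantile normalization, voom, a prior of 2 reads, other filters, no trend, a replicate block and each library left out.

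The comparison and the lists were chosen with earlier results of these data known. Named genes are, per list, members marked as key and the 3 largest rises and falls; outside the lists, the 15 largest non-overlapping rises and falls above the median level; and the 8 genes per direction with most reads when the other diet had none. Some genes were named outside this rule, among them Kynu, Kmo, Tdo2, Selenbp1, Slc30a1 and Fbl. 143 genes counted over fewer than 200 bases were not named. No library was left out of the fit. The other samples of the series were not used here.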

Additional observations from a re-analysis of the deposited data

Results flagged for a closer look

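Of 476 sets of 4 libraries examined (the genes given here, in each diet), 13 had 1 library far from the other 3; by the rule used chance alone sets apart about 1 set in 20. All levels are in log2 CPM.

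MCD replicate 3 was low for the stress factor Atf3 at 5.02 (others 5.87 to 6.00), for Arhgef2 at 6.01 (others 6.40 to 6.42) and for the activin subunit Inhbe at 5.78 (others 6.32 to 6.37). Control replicate 2 was high for Vnn1 at 5.60 (others 4.00 to 4.21) and Dpys at 7.93 (others 7.59 to 7.63), and low for S100a6 at 0.13 (others 1.08 to 1.26) and S1pr1 at 7.33 (others 7.59 to 7.63). Control replicate 1 was high for Hes6 at 6.32 (others 5.93 to 5.98) and low for Lpar6 at 5.89 (others 6.21 to 6.24). Control replicate 3 held Hsph1 at 8.11 (others 7.04 to 7.16). MCD replicate 4 was high for Dusp5 at 0.19 (others −0.76 to −0.61) and low for S100g at 0.31 (others 1.32 to 1.38). MCD replicate 1 held Phlda1 at 4.67 (others 3.35 to 3.38). All 13 genes kept their call without the library that stood apart.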

How the results depend on the processing

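The count of higher genes (3462) was 7588 with total-read scaling and 2070 among genes above the 50th percentile, where fewer genes are tested, and that of lower genes (3079) was 1222 with total-read scaling. Leaving out 1 library gave 2957 to 3338 higher and 2694 to 2905 lower, and the remaining settings stayed within 1.5 times of the main counts. With the replicate number as a block, 2945 were higher and 2562 lower. The labels do not say whether the numbers pair the samples. With the mean of each diet removed, same-numbered libraries of the 2 diets correlated at −0.12 to 0.01. Differently numbered ones correlated at −0.056 to 0.098. The block changed no call of a gene given here. Signs turned for Hnf4a (0.29 with quantile normalization), for Nampt (0.31 with total-read scaling, 0.076 with quantile normalization, and −0.23 to 0.001 over the fits that left out 1 library), for Fbl (−0.011 to 0.14 over those fits) and for Adipoq (−1.59 to 0.62); apart from Hnf4a none of these was called. For what shifts the balance with total-read scaling, the cause was not tested. Genes with few reads on the control diet, such as Fosl1 and Siglecf, are limited by depth.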
